A study of Mus musculus with 12 samples.

Results

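The 9 Kruppel-like factor genes described here are Klf2, Klf3, Klf4, Klf6, Klf7, Klf9, Klf10, Klf11 and Klf13. They were found by their gene symbol in the deposited count tables, and they are 9 of 19564 genes listed for either of the sorted cell populations, and 9 of 14 Klf genes. All 9 are listed in both tables and all 9 passed the filter on low counts in every comparison. RNA was sequenced from glomerular endothelial cells (GEC) of 3 wild type (WT) mice and 3 mice with Alport syndrome (AS), which lack a working Col4a5, which encodes a chain of the collagen IV network of the glomerular basement membrane. All 6 mice were 4 months old, on the C57BL/6 background, and carried the TekCre tdTomato reporter, in which Cre under the promoter of the endothelial receptor gene Tek switches on the red protein tdTomato (tdT). No treatment is named for any of them. Cells of digested glomeruli were sorted by red brightness into dim tdT and bright tdT GEC, so that each mouse gave 1 library of each kind and the 12 libraries form 4 groups of 3, WT-dim, WT-bright, AS-dim and AS-bright. Tek-Cre is known to be active also in blood-forming cells, and a sorted sample is a mixture of cells of which the RNA is read together, so that fewer cells of a type and less RNA per cell cannot be told apart.

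Kruppel-like factors are transcription factors with a row of zinc fingers at the carboxyl end that read CACCC and GC-rich boxes in promoters, and differ in the parts that recruit activators or repressors. In endothelium, KLF2 and KLF4 are induced by laminar blood flow through the MEKK3, MEK5, ERK5 and MEF2 cascade and turn on genes of an anti-thrombotic and anti-inflammatory state. KLF2 also keeps lymphocytes quiescent, KLF9 is induced by glucocorticoids, KLF10 and KLF11 are induced by TGF-beta, KLF3 is a repressor that recruits CtBP, and KLF6 is an early-response factor.

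Libraries held 11440169 to 15074909 counts on genes. Col4a5, the mutated gene, had 67.6, 37.1 and 73.9 CPM (counts scaled to a common library size after TMM normalisation) in WT-dim, 3.60, 1.99 and 1.36 in AS-dim, 9.99, 4.92 and 5.13 in WT-bright and 3.13, 6.79 and 4.00 in AS-bright. It was thus lower in every AS-dim than in every WT-dim library, at a log2 fold change of -4.69 (SE, the standard error, 0.45 and adjusted p = 0.00982 by edgeR's quasi-likelihood test, adjusted after Benjamini and Hochberg). The bright libraries of WT and AS overlapped (adjusted p = 0.495 by the same test), so that Col4a5 set the genotypes apart in the dim libraries alone. The dim call of Col4a5 was lost without AS-dim replicate 1 or 3 (adjusted p of 0.0968 or less). Podocyte marker genes (1 higher and 3 lower of 7, median log2 fold change -1.70) and proximal tubule ones (6 of 14 lower, median -3.99) also moved in AS-dim. Their part in the difference of Col4a5 was not tested. The 14 endothelial marker genes summed to 10860 to 19140 CPM in the bright libraries, 753 to 1374 in WT-dim and 234 to 321 in AS-dim. By contrast, the 12 leukocyte markers listed in both tables summed to 9028 to 19910 CPM in the dim and 60.5 to 170 CPM in the bright libraries. Endothelial markers thus had a higher sum than leukocyte markers in every bright library, and leukocyte markers stood above endothelial ones in every dim library, against the label. Podocyte markers summed to 1036 to 1549 CPM in the bright and 625 to 1304 CPM in the dim libraries, and 6 mesangial and mural markers to 408 to 876 CPM and 59.0 to 204 CPM. From dim to bright, mesangial and mural markers were higher in 3 of 6 in WT and 6 of 6 in AS, and podocyte markers were higher in 1 and lower in 4 of 7 in WT and higher in 4 and lower in 2 of 7 in AS. The other 7 of 19 leukocyte markers, Cd3e, Cd3g, Cd4, Nkg7, Klrb1c, Itgam and Itgax, are not listed in the bright table.

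Per kilobase of merged exon, Klf2 and Klf6 had the highest mean levels of the members in WT-dim, AS-dim and WT-bright, and Klf2 and Klf4 in AS-bright. With the gene lengths that the authors deposited, the member after Klf2 differed in both bright groups. It was Klf9 in WT-bright, at 264 CPM per kb against 250 for Klf6 and 229 for Klf4. In AS-bright it was Klf6, at 205 CPM per kb against 202 for Klf4. The ranks, levels and shares that follow are per kilobase of merged exon. Klf2 had rank 1 or 2 among the 9 in every library, with 572 to 2558 CPM per kb. Klf6 had ranks 1 to 3, with 183 to 707 CPM per kb, and Klf4 ranks 2 to 4, with 66.6 to 456 CPM per kb. Klf9 had the widest range of ranks, from 3 to 9, with 13.6 to 201 CPM per kb. The highest level of Klf10 was 25.9, of Klf11 28.9 and of Klf13 23.7 CPM per kb. Klf2 made up 46.9% ± 1.35 (SD, n = 3) of the summed CPM per kb of the 9 members in WT-dim, 67.6% ± 3.63 in WT-bright, 40.4% ± 1.78 in AS-dim and 54.6% ± 6.26 in AS-bright. For Klf6 the shares were 37.0% ± 1.52, 11.2% ± 1.88, 42.6% ± 2.56 and 15.6% ± 2.39 in the same order, and for Klf4 4.67% ± 0.740, 10.3% ± 2.12, 6.99% ± 0.429 and 17.6% ± 5.42. Klf4 exceeded Klf6 in AS-bright replicates 1 and 2 and in WT-bright replicate 2. Klf6 thus stood close to Klf2 in the dim libraries, where the ratio of their levels per kb was 0.751 to 1.19, and far under it in the bright libraries, where the ratio was 0.128 to 0.318.

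**Figure D1:**
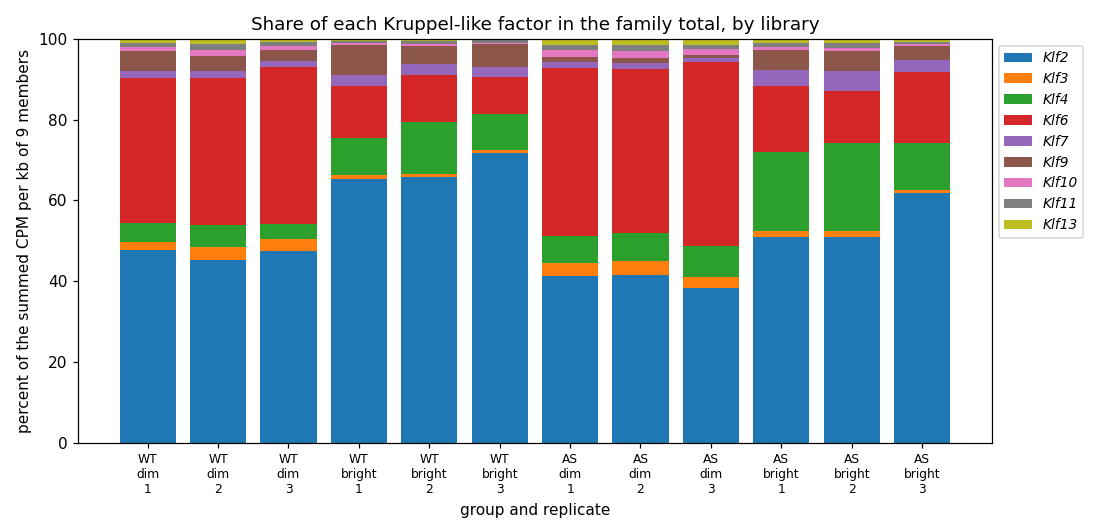
Stacked bars of the share of each of the 9 members in their summed CPM per kb of merged exon, in percent, for the 12 libraries in groups of 3. The Klf2 share lies at 38.4% to 47.8% in the dim and at 51.0% to 71.8% in the bright libraries, and the Klf6 share at 35.9% to 45.6% in the dim and at 9.17% to 17.7% in the bright libraries.

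The bright and the dim libraries of WT mice differed in 4 of the 9 members, Klf2, Klf4, Klf7 and Klf9, all of them higher in the bright libraries. For comparison, 13.8% of 14247 genes tested were called higher and 11.5% called lower. The median log2 fold change of the 9 members was 0.44, against -0.04 over all genes tested. In AS mice, 3 members were higher and 4 lower in the bright libraries, where 28.6% of all 14052 genes were called higher and 26.5% lower, and the median of the members was -0.16 against 0.02. Bright and dim libraries did not overlap in 5 members in WT and 8 in AS, against 41.9% and 62.4% of all genes.

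Klf2 (chr8:72319033-72321656 of GRCm38, plus strand, protein-coding) had 1260, 1128 and 1599 CPM in WT-dim and 2869, 4336 and 4725 CPM in WT-bright. Every WT-bright library thus lay above every WT-dim library. The log2 fold change was 1.62 (SE 0.28, adjusted p = 0.00267 by edgeR's quasi-likelihood test), a 3.08-fold difference. In AS the dim libraries had 1180, 1057 and 1090 CPM, and the bright ones 1367, 1327 and 2871 CPM. Replicate 3 stood apart, since it had more than the sum of the other two AS-bright libraries, and all AS-bright libraries lay above all AS-dim ones. The log2 fold change of 0.73 (SE 0.29, adjusted p = 0.0533 by the same test) did not pass. Without AS-bright replicate 3 it was 0.28 (adjusted p = 0.174), and it passed in 6 of 17 alternatives, among them DESeq2 (adjusted p = 0.0396).

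Klf4 (chr4:55527143-55532466, minus strand), the close relative of Klf2 in the flow response, had 203, 222 and 218 CPM in WT-dim and 675, 1389 and 966 CPM in WT-bright. The WT-bright replicate 2 was the highest of the 12 libraries, and no WT-bright library came near a WT-dim one. The log2 fold change was 2.27 (SE 0.28, adjusted p = 0.000443 by edgeR's quasi-likelihood test), 4.84-fold. In AS-dim Klf4 had 316, 285 and 351 CPM, and in AS-bright 865, 936 and 880 CPM, which again left a gap between the groups. This log2 fold change was 1.48 (SE 0.16, adjusted p = 3.44e-05 by the same test), 2.80-fold. Klf4 passed in all 17 alternatives tried in both genotypes.

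Klf7 (chr1:64029447-64122282, minus strand), known for its role in neurons and fat cells, had 199, 194 and 227 CPM in WT-dim against 512, 792 and 702 CPM in WT-bright. In AS the dim libraries had 193, 161 and 131 CPM and the bright ones 478, 543 and 609 CPM. The log2 fold change was 1.74 in both genotypes, with standard errors of 0.24 in WT (adjusted p = 0.000731) and 0.20 in AS (adjusted p = 3.88e-05, edgeR's quasi-likelihood test for both). Bright and dim libraries did not overlap in either. Klf7 overlaps 2 annotated genes on the opposite strand, Gm26649 and Gm13748, and 1 miRNA gene on its own strand, and the strand used in counting is not given in the sources used here, so that its reads may include theirs.

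Klf9 (chr19:23141226-23168134, plus strand) had 343, 245 and 244 CPM in WT-dim and 864, 749 and 968 CPM in WT-bright. No WT-bright library overlapped a WT-dim one, and the log2 fold change was 1.69 (SE 0.24, adjusted p = 0.000945 by edgeR's quasi-likelihood test), 3.22-fold. In AS-dim it had 96.7, 84.8 and 65.5 CPM and in AS-bright 339, 338 and 415 CPM. This log2 fold change of 2.13 (SE 0.20, adjusted p = 9.15e-06 by the same test), 4.38-fold, was the highest of any member in AS. Klf2, Klf4, Klf7 and Klf9 in WT, and Klf4, Klf7 and Klf9 in AS, passed in all alternatives tried.

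**Figure D2:**
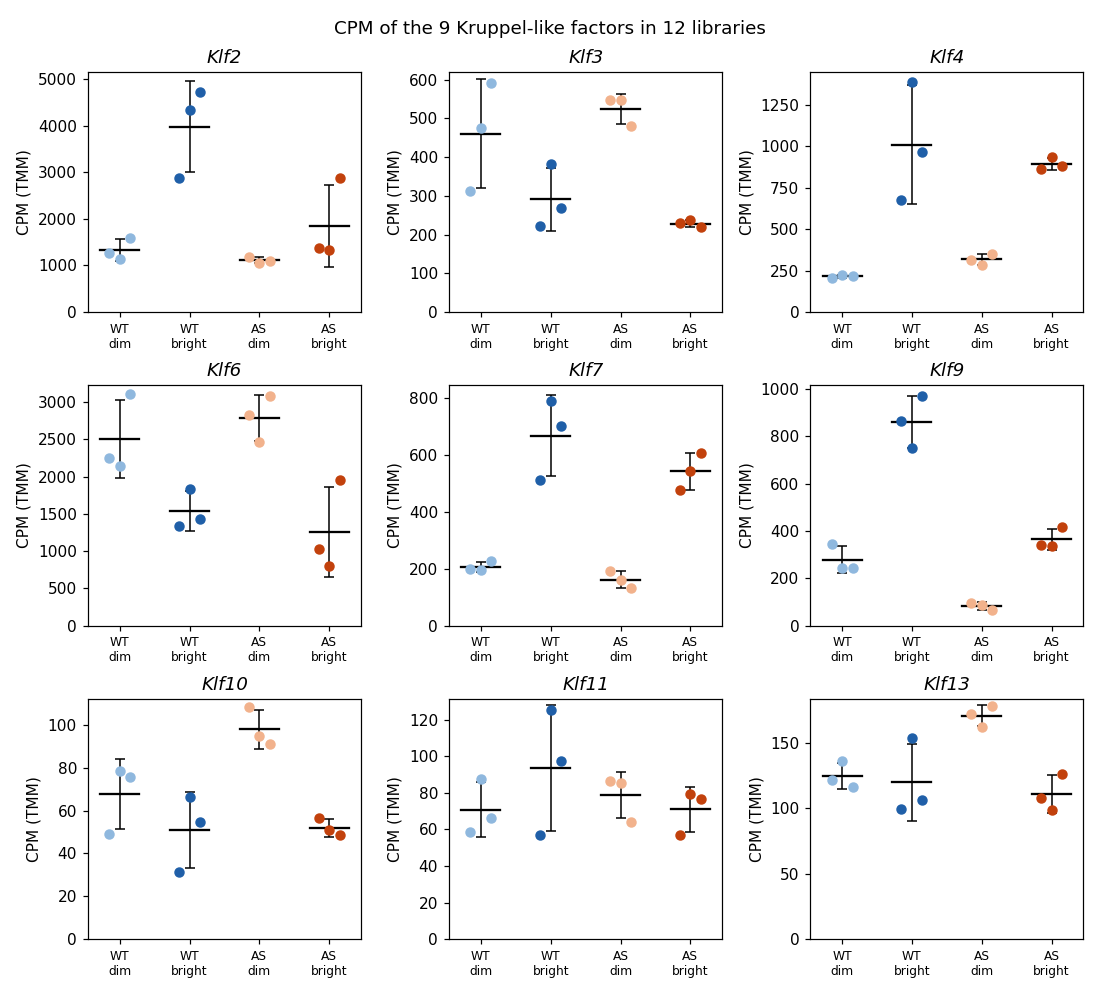
CPM (linear axis, TMM-scaled) of the 9 members in the 3 libraries of each group, with one point per library and the mean and SD as bars. Within each genotype the bright libraries of Klf2, Klf4, Klf7 and Klf9 lie above the dim ones, and AS-bright and WT-dim overlap for Klf2 and Klf9, while Klf9 lies lower in AS than in WT within each brightness.

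Promoters of these 4 genes are shown because they are the members that were higher in the bright libraries of WT mice. Each is the window of 250 bases before to 50 bases after the start that RefSeq gives on GRCm38.p6, written 5′ to 3′ along the gene, and 8 of the 9 members matched an entry. The capitals mark CACCC (the KLF box, or GGGTG as it reads on the other strand), TGACG (the core of the cyclic AMP response element, CRE, or CGTCA on the other strand) and the MEF2 motif, which was found in Klf2 alone.
Klf2 (chr8:72318812-72319111, plus strand): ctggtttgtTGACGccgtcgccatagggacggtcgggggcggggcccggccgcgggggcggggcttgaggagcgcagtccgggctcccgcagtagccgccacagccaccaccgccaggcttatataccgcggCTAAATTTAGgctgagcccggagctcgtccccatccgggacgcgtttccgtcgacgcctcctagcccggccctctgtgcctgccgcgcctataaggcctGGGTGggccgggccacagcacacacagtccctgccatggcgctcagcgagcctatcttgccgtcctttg
Klf4 (chr4:55532426-55532725, minus strand): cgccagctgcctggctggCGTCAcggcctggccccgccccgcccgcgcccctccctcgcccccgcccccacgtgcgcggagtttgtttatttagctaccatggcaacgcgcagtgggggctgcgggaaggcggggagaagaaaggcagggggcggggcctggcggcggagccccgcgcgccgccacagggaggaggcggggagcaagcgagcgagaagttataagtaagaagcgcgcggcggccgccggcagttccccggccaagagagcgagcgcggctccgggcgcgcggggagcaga
Klf7 (chr1:64121340-64121639, minus strand): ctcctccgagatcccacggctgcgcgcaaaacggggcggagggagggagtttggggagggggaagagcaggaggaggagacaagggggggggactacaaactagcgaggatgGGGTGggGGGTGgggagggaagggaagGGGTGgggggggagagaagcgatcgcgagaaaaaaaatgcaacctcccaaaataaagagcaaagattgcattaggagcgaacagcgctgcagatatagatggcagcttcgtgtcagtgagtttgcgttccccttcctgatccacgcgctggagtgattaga
Klf9 (chr19:23140976-23141275, plus strand): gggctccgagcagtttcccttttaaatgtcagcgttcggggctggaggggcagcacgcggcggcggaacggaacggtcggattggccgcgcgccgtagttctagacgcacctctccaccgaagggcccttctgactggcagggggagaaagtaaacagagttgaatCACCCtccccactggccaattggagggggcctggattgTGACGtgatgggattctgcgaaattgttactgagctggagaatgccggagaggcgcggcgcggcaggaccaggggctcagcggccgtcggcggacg
The KLF box occurs in 5 of the 8 windows (Klf2, Klf3, Klf7, Klf9 and Klf13) and in 56.7% of 27025 windows, 1 per gene, and the CRE core in 5 of 8 (Klf2, Klf3, Klf4, Klf9 and Klf13) against 21.0% of all. Searching GGGCGG, the GC box, on both strands gave 7 of 8 windows (all but that of Klf9) against 35.9% of all, and it is left in lower case above. The Klf2 window holds the MEF2 motif 118 to 109 bases before the start, and 3.26% of all windows hold one. Their GC content was 69.3% in Klf2, 74.3% in Klf4, 58.3% in Klf7 and 63.3% in Klf9, against a median of 52.7% over all windows. A match to a few letters is a description of the window and not a bound site.

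None of the other 5 members was called higher in the bright libraries. Klf6 (chr13:5861482-5870394, plus strand), an early-response member, had 2250, 2149 and 3103 CPM in WT-dim and 1339, 1837 and 1434 CPM in WT-bright, which did not overlap. The log2 fold change of -0.66 (SE 0.25, adjusted p = 0.0888 by edgeR's quasi-likelihood test) did not pass, but with the mouse as a replicate block it was -0.65 (adjusted p = 0.0492 by the same test). In AS, Klf6 had 2831, 2461 and 3078 CPM in the dim and 1033, 804 and 1948 CPM in the bright libraries, with AS-bright replicate 3 again the highest of its group. This log2 fold change was -1.16 (SE 0.30, adjusted p = 0.00854 by the same test) and lost its call without AS-bright replicate 1 (adjusted p = 0.0516).

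Klf3 (chr5:64803388-64832901, plus strand), the repressor that binds CtBP, had 312, 475 and 593 CPM in WT-dim and 223, 382 and 268 CPM in WT-bright. It was lower in bright in all 3 WT mice, though the groups overlapped, and the log2 fold change of -0.63 did not pass (adjusted p = 0.169, and 0.0821 with the mouse as a replicate block). In AS it had 547, 548 and 481 CPM in the dim and 229, 237 and 220 CPM in the bright libraries, a log2 fold change of -1.21 (SE 0.16, adjusted p = 0.000102 by edgeR's quasi-likelihood test). Klf10 (chr15:38291463-38300706, minus strand), induced by TGF-beta, fell from 108, 94.9 and 90.9 CPM in AS-dim to 56.7, 50.8 and 48.6 CPM in AS-bright, a log2 fold change of -0.92 (adjusted p = 0.00117 by the same test). In WT it had 48.9, 78.5 and 75.8 CPM in dim and 31.4, 66.2 and 54.7 CPM in bright, lower in bright in all 3 mice, with overlapping groups and a log2 fold change of -0.38 (adjusted p = 0.443, and 0.234 with the mouse as a replicate block).

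Klf13 (chr7:63886351-63938915, minus strand), known for its activity at the Ccl5 promoter in T lymphocytes, stood at 172, 162 and 179 CPM in AS-dim and 108, 98.5 and 127 CPM in AS-bright, with a log2 fold change of -0.63 (SE 0.16, adjusted p = 0.00826 by edgeR's quasi-likelihood test). Its WT libraries ran from 117 to 136 CPM in dim and from 99.8 to 154 CPM in bright, and overlapped. For Klf11 (chr12:24651274-24662789, plus strand), the other TGF-beta-induced member, all groups overlapped, with 57.0 to 126 CPM over the 12 libraries and adjusted p of 0.359 in WT and 0.540 in AS. Klf3 and Klf13 each overlap other annotated genes, Klf13 on the opposite strand and Klf3 on both, and their reads may include those of these genes. Leukocyte, endothelial, and mesangial and mural markers moved with the same contrast, the leukocyte ones from 9028 to 19910 CPM in the dim to 60.5 to 170 CPM in the bright libraries, and their part in these differences was not tested.

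**Figure D3:**
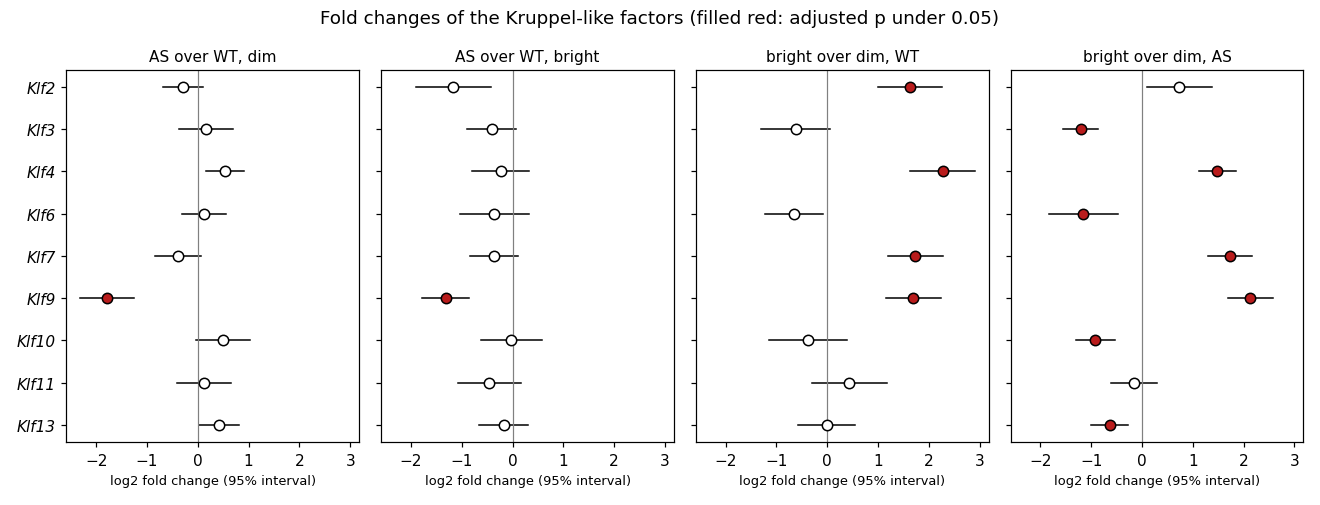
Log2 fold change of each member (points) with its 95% interval (lines) in the comparison of AS over WT in dim and in bright libraries and of bright over dim in WT and in AS. Red points passed at adjusted p under 0.05 and white ones did not; Klf9 passed in all 4 panels.

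Between AS and WT, only Klf9 passed in either brightness, and it was lower in AS in both. In the dim libraries 1 of 9 members was called lower and 0 higher, where 6.42% of 14637 genes were called lower and 2.21% higher, and 3 members had an unadjusted p under 0.05, as had 26.3% of all genes. The AS and WT libraries of 5 members did not overlap in dim, as those of 31.2% of all genes did not. The median log2 fold change of the members was 0.13, against -0.02 over all genes. In the bright libraries 1 of 9 was lower and 0 higher, where 0.264% of 14396 genes were called lower and 0.188% higher, with 2 members at an unadjusted p under 0.05, as were 21.8% of all genes, and a median of -0.36 against -0.03. Scaled within the bright libraries, 3 members (Klf2, Klf3 and Klf9) did not overlap between AS and WT, and 24.5% of all genes did not.

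Klf9 fell from 277 ± 56.9 CPM (SD, n = 3) in WT-dim to 82.4 ± 15.8 CPM in AS-dim, a log2 fold change of -1.79 (SE 0.23, 95% interval -2.32 to -1.25, adjusted p = 0.0172 by edgeR's quasi-likelihood test). All 3 AS-dim libraries, at 65.5 to 96.7 CPM, were under all 3 WT-dim libraries, at 244 to 343 CPM. In the bright libraries it fell from 861 ± 109 CPM to 364 ± 44.0 CPM, a log2 fold change of -1.32 (SE 0.21, 95% interval -1.77 to -0.86, adjusted p = 0.0345 by the same test). Here, too, the AS libraries, at 338 to 415 CPM, lay under the WT libraries, at 749 to 968 CPM. The fold change moved little over the alternatives, from -1.94 to -1.59 in dim and from -1.44 to -1.24 in bright, but its call was lost without AS-dim replicate 1 (adjusted p = 0.113) or 3 (adjusted p = 0.107), and in bright without WT-bright replicate 3 (adjusted p = 0.0953), AS-bright replicate 1 (adjusted p = 0.246) or AS-bright replicate 3 (adjusted p = 0.125). In bright it was also lost in the edgeR version 3 form of the fit (adjusted p = 0.0558) and with the replicate number as a block (adjusted p = 0.0534), both by the quasi-likelihood test. Over all genes, 16 passed with that block, 1 without AS-dim replicate 3 and 0 in each of the other fits just named.

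Markers of several cell types moved with genotype in these same libraries. In dim, the endothelial markers fell from 753 to 1374 CPM in WT to 234 to 321 CPM in AS (9 of 13 lower, list median -2.22), and the 12 leukocyte markers listed in both tables stood at 9028 to 15470 CPM in WT and 17250 to 19910 CPM in AS. Of all 19 leukocyte markers, each tested in dim, 2 were higher in AS, with a list median of 0.54. Podocyte markers stood at 698 to 1304 CPM in WT-dim and 625 to 677 CPM in AS-dim (1 higher and 3 lower of 7, list median -1.70), and the mesangial and mural markers at 118 to 204 CPM and 59.0 to 105 CPM. In bright, the endothelial markers stood at 10860 to 16710 CPM in WT and 16260 to 19140 CPM in AS, and the leukocyte markers at 60.5 to 103 CPM and 129 to 170 CPM. Podocyte markers stood at 1036 to 1286 CPM in WT-bright and 1378 to 1549 CPM in AS-bright, which did not overlap (list median 0.74), and mesangial and mural markers at 408 to 876 CPM and 443 to 804 CPM, which did. The part of these cell types in the difference of Klf9 was not tested. The 14 proximal tubule markers summed to 9896, 2201 and 2133 CPM in WT-dim and 90.7, 696 and 84.1 CPM in AS-dim (6 of 14 lower, list median -3.99), and to 4179, 712 and 1097 CPM in WT-bright and 174, 1015 and 175 CPM in AS-bright. The library with the highest sum of each group (replicate 1 in WT and replicate 2 in AS) was left out in one alternative, in which Klf9 had a log2 fold change of -1.63 in dim (adjusted p = 0.0361) and -1.24 in bright (adjusted p = 0.0136), both passing edgeR's quasi-likelihood test. The list of 6 glucocorticoid-induced genes, which include Fkbp5, Tsc22d3, Sgk1 and Per1, held 0 genes that passed between AS and WT in either brightness, with list medians of -0.01 in dim and -0.12 in bright. From dim to bright, 1 of these 6 genes was higher and 1 lower in WT (list median -0.21), and 2 were higher and 3 lower in AS (list median -0.96). Among them, Sgk1 rose from dim to bright by 2.92 in WT and 3.22 in AS on the log2 scale, while Tsc22d3 fell by 1.20 and 1.60 on the log2 scale (adjusted p of 0.0243 or less for all 4 by edgeR's quasi-likelihood test).

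Klf2 and Klf4 did not pass between AS and WT. In the bright libraries Klf2 had 2869 to 4725 CPM in WT and 1327 to 2871 CPM in AS, ranges that met at their ends, with a log2 fold change of -1.17 (SE 0.33, adjusted p = 0.0979 by edgeR's quasi-likelihood test). It passed in 2 of 17 alternatives, DESeq2 (adjusted p = 0.00853) and edgeR's likelihood ratio test (adjusted p = 0.0219). Without AS-bright replicate 3 the log2 fold change was -1.64. In the dim libraries Klf2 had 1128 to 1599 CPM in WT and 1057 to 1180 CPM in AS, which overlapped (log2 fold change -0.29, adjusted p = 0.329).

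In the dim libraries Klf4 had 203 to 222 CPM in WT and 285 to 351 CPM in AS, which did not overlap, with a log2 fold change of 0.53 (SE 0.16, adjusted p = 0.0799 by edgeR's quasi-likelihood test; adjusted p = 0.0428 with DESeq2). In the bright libraries it was -0.24 (adjusted p = 0.625) and the ranges overlapped. Because CPM of 2 genes in one library share its scaling, their ratio is free of it. The ratio of Klf4 to Klf2 per kb was 0.0826 to 0.119 in WT-dim, 0.162 to 0.195 in AS-dim, 0.124 to 0.194 in WT-bright and 0.186 to 0.427 in AS-bright. The dim groups did not overlap and the bright groups did, through AS-bright replicate 3 at 0.186, and this ratio was looked at after the values were known and was not tested.

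None of the other 6 members passed between AS and WT. In dim, Klf13 had a log2 fold change of 0.42 (adjusted p = 0.159), Klf10 of 0.50 (adjusted p = 0.214) and Klf7 of -0.39 (adjusted p = 0.258), all by edgeR's quasi-likelihood test. For these 3 the AS and WT libraries did not overlap, as those of 31.2% of all genes tested did not. Klf3, Klf6 and Klf11 were between 0.12 and 0.16 in dim. In bright, Klf3, Klf6, Klf7 and Klf11 lay between -0.45 and -0.36, and Klf10 and Klf13 at -0.02 and -0.18, with adjusted p of 0.305 or more for all 6. The 95% interval in bright ran from -1.04 to 0.33 for Klf6 and from -1.07 to 0.16 for Klf11, which bounds what 3 mice per group could show.

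Whether the genotype effect differed between bright and dim libraries was tested by the interaction of the 2 factors over all 12 libraries. Among the 9 members 0 passed, where 2.96% of 15084 genes were called higher and 0.815% lower. Klf4 alone of the 9 was under an unadjusted p of 0.05, as were 18.5% of all genes, with a difference of -0.74 on the log2 scale (SE 0.32, adjusted p = 0.234 by edgeR's quasi-likelihood test), and DESeq2 also called 0 members. For Klf2 it was -0.84 (adjusted p = 0.305) and for Klf9 0.51 (adjusted p = 0.391). The median of the members was -0.54 against 0.13 over all genes, and that of all genes moved to -0.03 with library sizes in place of TMM. Klf7, Klf9, Klf10, Klf11 and Klf13 moved down with it, from 0.05, 0.51, -0.50, -0.55 and -0.57 to -0.10, 0.34, -0.64, -0.68 and -0.72. With the mouse as a replicate block, 877 genes were called in place of 569, and again 0 members.

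Immediate-early genes, and with them heat shock genes such as Hspa1a, are induced quickly by stimuli and by tissue dissociation, and KLF2, KLF4 and KLF6 are counted among early responders. Of 17 immediate-early and dissociation response genes, 14 were higher and 0 lower in the bright libraries of WT mice, with a list median of 1.67, and 13 higher and 1 lower (Nr4a1) in AS, with a list median of 0.93. Hspa1b at a log2 fold change of 3.34, Hspa1a at 3.23 and Jun at 2.99 led in WT, and Egr3 at 1.15, Ier2 at 1.32 and Dusp1 at 1.39 had the smallest differences that passed. Between AS and WT 1 of 17 passed in dim, Junb, at 1.38 (adjusted p = 0.0142), and 0 in bright. The call of Junb held in 15 of 17 alternatives and was lost without AS-dim replicate 1 or 3.

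Summed over the 17 genes, AS-bright replicate 3 had 46900 CPM and the other two 31820 and 30110 CPM, and it was the highest of its group in Klf2, Klf6, Klf7, Klf9 and Klf13 as well. The same library was the lowest of its group in Klf3 and Klf10, and in the middle in Klf4 and Klf11. WT-bright replicate 2 had the most, 52730 CPM, against 35250 and 39260 CPM. It was the highest of its group in every member but Klf2, where it was in the middle, and Klf9, where it was the lowest. The dim libraries had 9698 to 14360 CPM. Whether these differences share a source with those of the Klf genes was not tested.

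**Figure D4:**
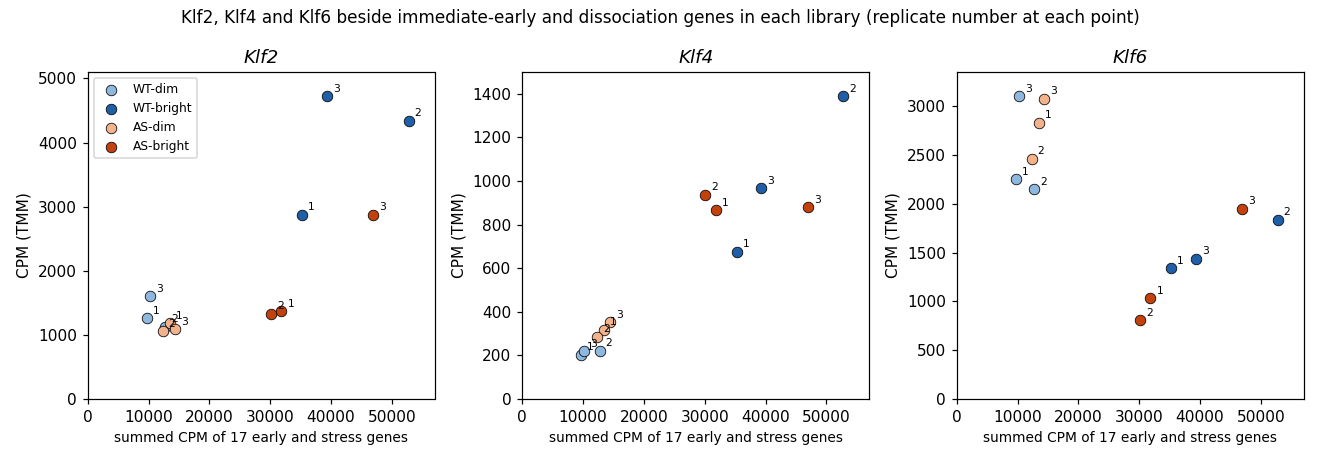
CPM of Klf2, Klf4 and Klf6 in each library against the summed CPM of 17 immediate-early and dissociation response genes, both on linear axes, with the replicate number beside each point and one colour per group. The dim libraries lie at 9698 to 14360 and the bright ones at 30110 to 52730 on the horizontal axis, and AS-bright replicate 3 stands to the right of and above the other AS-bright libraries for Klf2 and Klf6.

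Of the wider family, 9 of 13 other KLF and SP genes were tested in each comparison. Klf12, a repressor, was the one that passed in AS over WT, at a log2 fold change of -1.96 in dim (SE 0.46, adjusted p = 0.0409 by edgeR's quasi-likelihood test). It had 8.51, 6.00 and 7.33 CPM in WT-dim and 2.40, 1.99 and 1.28 CPM in AS-dim, the latter from 34, 24 and 16 counts. Its call held in 8 of 17 alternatives and was lost, among others, when any of the 3 AS-dim libraries was left out. In bright it had 28.6, 48.7 and 37.3 CPM in WT and 22.2, 27.5 and 27.9 CPM in AS, and from dim to bright it rose by 2.43 in WT and by 3.75 in AS on the log2 scale (adjusted p = 0.00123 and 5.60e-06). Bright over dim, 1 of 9 was higher in WT (Klf12) and 2 higher (Klf12 and Klf16 at 0.80) and 2 lower (Klf5 at -1.60 and Sp3 at -0.71) in AS. Klf5 and Klf15 stayed at 12.4 and 20.7 CPM or under in every library and, but for Klf5 in AS, did not pass in any of the comparisons.

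The kinases and MEF2 factors of the flow cascade gave 0 of 7 that passed between AS and WT in either brightness. In bright over dim, Mef2a was higher in WT at 1.22 (adjusted p = 0.00973) and in AS at 0.80 (adjusted p = 0.00962), and Mef2d lower at -1.61 (adjusted p = 0.00979) and -1.41 (adjusted p = 9.71e-05), both by edgeR's quasi-likelihood test. In AS, Map3k3 was higher at 0.60, and Map2k5 at -0.86 and Map3k2 at -0.69 were lower. Of 13 cofactors and ubiquitin ligases tested, 0 passed between AS and WT, 2 were higher in bright in WT, and 4 were higher and 2 lower in AS. The CtBP gene Ctbp2, whose protein works with KLF3, was higher in bright in both, at 1.44 in WT and 1.26 in AS, and Hdac1 at 0.83 and 0.81. In AS, Smurf1 (1.64) and Wwp1 (0.72) were also higher, and Crebbp (-0.97) and Ep300 (-0.53) lower.

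Genes that KLF2 or KLF4 is known to activate in endothelium were higher in bright libraries in 3 of 6 tested in WT, with Nos3, the endothelial nitric oxide synthase, at 2.82, Thbd, thrombomodulin, at 2.62 and Tek at 3.67, and in 5 of 5 in AS, with Nos3 at 5.05, Thbd at 2.96, S1pr1 at 2.29, Aqp1 at 4.73 and Tek at 6.58. The Tek promoter drives the reporter used to sort the cells, and markers of endothelium moved along. The part of the sort and of these markers in the values was not tested. Genes that the 2 factors are known to repress were higher, too, with 4 of 7 higher and 1 lower in WT and 5 of 7 higher and 1 lower in AS. They include Edn1, the gene of endothelin-1, at 3.25 and 4.13, and Sele, the gene of E-selectin, at 3.74 and 6.17, while Ccl2 was lower at -5.32 and -4.34.

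Between AS and WT in dim, 2 of 5 activated genes were lower (Aqp1 at -4.56 and Tek at -2.60), and 2 of 7 repressed genes were lower (Edn1 at -2.39 and Kdr at -2.76), with 0 higher in either list. Endothelial markers moved the same way, with 9 of 13 lower in AS-dim, and so did proximal tubule markers, with 6 of 14 lower (list median -3.99). The part of either in this was not tested. In bright, 0 of 5 activated genes passed, including Nos3 (log2 fold change 0.40, adjusted p = 0.352) and Thbd (0.75, adjusted p = 0.122), and 1 of 6 repressed genes was higher, Sele, at 1.90 (adjusted p = 0.0291 by edgeR's quasi-likelihood test). The call of Sele held in 13 of 17 alternatives and was lost with the version 3 fit and without WT-bright replicate 3, AS-bright replicate 1 or AS-bright replicate 3. In dim, the calls of Aqp1 and Tek held in 13, of Kdr in 15 and of Edn1 in 8 of 17, and all 4 were lost without AS-dim replicate 1 or 3. Edn1 in bright had 94.7 to 164 CPM in WT and 38.2 to 67.4 CPM in AS, which did not overlap, and a log2 fold change of -1.48 (adjusted p = 0.0516).

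The list of KLF2 targets in lymphocytes held 3 genes. From dim to bright, Ccr7, the chemokine receptor gene of lymph node homing, had log2 fold changes of -7.74 in WT and -7.37 in AS, and Itgb7, the gene of an integrin chain of gut homing, of -4.42 and -5.13, all 4 passing the test. S1pr1, which endothelium uses as well, was higher in AS (2.29) and did not pass in WT (0.83, adjusted p = 0.254 by edgeR's quasi-likelihood test). Leukocyte markers were lower in bright as well, 12 of 12 tested in each genotype, and their part in this was not tested. Between AS and WT, 1 of 3 passed in dim, Itgb7, at 0.89 (adjusted p = 0.0431), and 0 of 3 in bright. The call of Itgb7 held in 8 of 17 alternatives and was lost when any of the 3 AS-dim libraries was left out.

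Patterns over the 12 libraries were compared by the root mean square difference of centred log2 CPM, over 9361 genes of sufficient level. The members nearest each other were Klf3 and Klf10 at 0.27, Klf10 and Klf13 at 0.30, Klf3 and Klf6 at 0.35, Klf11 and Klf13 at 0.36, Klf3 and Klf13 at 0.39 and Klf4 and Klf7 at 0.39, and the farthest were Klf3 and Klf9 at 1.66. The genes nearest Klf2 were Rpl41 at 0.29, Syt11 at 0.34 and Ier2 at 0.35, those nearest Klf4 were Raph1 at 0.22, Pwwp2b at 0.26 and Nav1 at 0.26, and those nearest Klf9 were Rbbp9 at 0.42, Lpl at 0.42 and Ikbip at 0.43. The 12 libraries include 2 from each mouse, and the measure was used as a description. The same 9 genes came out with a smaller prior count in the logarithm.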

How the data were processed

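RNA of sorted cells was sequenced in 12 libraries, and the members and gene lists were chosen with earlier results of these data known. Per the labels and the study's methods, the authors trimmed reads with cutadapt and Trimmomatic, checked them with FastQC 0.11.5, aligned them with STAR 2.6.0c to GRCm38.p5 and deposited raw read counts per gene, 1 table for the dim and 1 for the bright libraries. The deposited tables also hold RPKM values made by the authors, which were not used for results. Columns of the authors' own edgeR comparisons, deposited as log2 fold changes and mean log2 CPM, as a likelihood ratio score and as p-values, were neither used nor compared. The 92 spike-in controls in each table were left out.

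Counts were filtered with filterByExpr, scaled by TMM and tested with edgeR 4.0.16 (R 4.3.3) by the quasi-likelihood test, p-values being adjusted after Benjamini and Hochberg across every gene in the fit, with a threshold of 0.05. AS was compared with WT within each brightness and bright with dim within each genotype, on 6 libraries each, and the interaction on all 12 over the 15768 genes in both tables. CPM values printed for libraries come from a TMM scaling of all 12. Levels per kb used merged exon lengths from Gencode, since the lengths in the tables differ from these. All 9 members were named, and of each list the 3 highest and 3 lowest log2 fold changes among genes that passed, with a few genes named whatever they did, of which 1 is not reported here. The ratio of Klf4 to Klf2 and a few other values were looked at after the values were seen.

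Dim and bright libraries with the same replicate number came from the same mouse. Their deviations from the group means correlated at 0.274, 0.216 and 0.102 in WT and at 0.0796, 0.385 and 0.174 in AS. Alternatives were DESeq2 1.42.0, the likelihood ratio test, other scalings and filters, a replicate block, all 12 libraries in 1 fit, leaving out each library and, chosen after seeing the data, the edgeR version 3 fit, a robust fit and leaving out the library of each group with the most proximal tubule RNA. Total counts per library of 11440169 to 15074909 set the counting precision. The analysis was also run on simulated counts, as a check of the code and not of the results. These had the same dispersion for every gene and none of the shifts in cell type markers described above.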

Additional observations from a re-analysis of the deposited data

Results flagged for a closer look

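Among the targets of KLF2 and KLF4 and the other KLF-related lists, 5 genes differed between bright and dim libraries in how AS compared with WT, and among the cell type markers 10 of 14 endothelial and 5 of 7 podocyte genes did, by the interaction term of edgeR's quasi-likelihood test, adjusted after Benjamini and Hochberg. The difference, bright minus dim on the log2 scale, was 4.32 for Aqp1 (SE 0.89, adjusted p = 0.0182), the water channel gene of endothelium and proximal tubule. For Kdr, which encodes a VEGF receptor, it was 3.55 (SE 0.40, adjusted p = 0.00222). For Tek, the angiopoietin receptor gene whose promoter drives the Cre, it was 2.96 (SE 0.44, adjusted p = 0.00432). For Sele it was 2.48 (SE 0.60, adjusted p = 0.0376), and for Errfi1, from the glucocorticoid-induced list, 1.22 (SE 0.28, adjusted p = 0.0289). Summed endothelial markers moved along, from 753 to 1374 CPM in WT-dim to 234 to 321 CPM in AS-dim and from 10860 to 16710 CPM in WT-bright to 16260 to 19140 CPM in AS-bright. Proximal tubule markers summed to 2133 to 9896 CPM in WT-dim, 84.1 to 696 CPM in AS-dim, 712 to 4179 CPM in WT-bright and 174 to 1015 CPM in AS-bright. Of these 14 genes 0 passed the interaction test, with a list median of 1.60. The part of these markers in the 5 differences was not tested. Of the 9 Klf members 0 were called in this test, where 3.77% of 15084 genes were, so that 0 is close to that share.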

How the results depend on the processing

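Of 810 fold changes of the members under alternatives, 767 kept their direction and their side of the threshold, 8 lost a call, 10 gained one and 25 turned direction. The counts of genes called moved far more. Between AS and WT in dim, 1263 genes were called, against 2213 with DESeq2, 1946 with the likelihood ratio test, 494 with the replicate block, 582 with the version 3 fit, 455 without the tubule-high libraries, 2106 with all 12 libraries in 1 fit and 0 to 1825 when 1 library was left out. In bright, 65 were called, against 39 with every gene that had a count, 1078 with DESeq2, 827 with the likelihood ratio test, 16 with the replicate block, 0 with the version 3 fit, 152 with the robust fit, 1174 without the tubule-high libraries, 139 with all 12 libraries and 0 to 281 when 1 was left out. For the interaction, 569 were called, against 1184 with DESeq2, 1114 with the likelihood ratio test, 877 with the mouse as replicate block, 326 without the tubule-high libraries and 252 to 857 when 1 was left out. Of the members, 2 were called between AS and WT in dim with DESeq2 and 0 to 1 when 1 library was left out. In bright it was 2 with DESeq2 and with the likelihood ratio test, 0 with the replicate block and with the version 3 fit, and 0 to 1 when 1 library was left out. The cause was not tested.

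The replicate block between WT and AS joins different mice that share only a number. Deviations of same-numbered libraries correlated at -0.115, -0.0853 and 0.0492 in dim and at -0.0832, -0.151 and 0.124 in bright. With it Klf9 in bright was -1.31 (adjusted p = 0.0534). With the mouse as a block, Klf6 was called in bright over dim in WT, and no other call of a member in that comparison, in AS or in the interaction changed.

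The values that turned direction did not pass in either setting. Without the tubule-high libraries, AS over WT in dim gave -0.096 for Klf3 and -0.070 for Klf11, and in bright -0.017 for Klf5. Bright over dim in WT gave 0.047 for Klf13 and 0.12 for Klf15, and the interaction -0.18 for Klf7 and -1.08 for Klf15. Klf10 in bright was 0.020 with the replicate block and 0.035 with all 12 libraries. With library sizes alone, Klf13 was 0.030 in bright over dim in WT and Klf7 -0.10 in the interaction, which was -0.093 with the filter on average logCPM. Leaving out 1 library, AS over WT in dim ran from -0.045 to 0.38 for Klf3 and from -0.015 to 0.31 for Klf6, and in bright from -0.25 to 0.19 for Klf10, -0.43 to 0.037 for Klf4 and -0.30 to 0.015 for Klf13. Bright over dim ran from -0.20 to 0.087 for Klf13 and -1.59 to 0.89 for Klf15 in WT, and from -0.95 to 1.89 for Klf15 in AS. The interaction ran from -0.10 to 0.20 for Klf7, -1.18 to 2.81 for Klf15 and -1.27 to 1.01 for Klf5.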
